A study of Mus musculus with 6 samples.

Results

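The cathepsin genes *Ctsa*, *Ctsb*, *Ctsc*, *Ctsd*, *Ctsh*, *Ctsk*, *Ctsl*, *Ctss*, *Ctsw* and *Ctsz* were taken by their symbols, 10 of the 31053 genes listed for 33961 cells taken from tumors. All 10 had UMIs (unique molecular identifiers, which count each captured transcript once) in each of the 4 libraries. The cells were dissociated from tumors of CT26, a colon carcinoma line of the mouse, carried by Balb/c females, and enriched with CD45 beads 5 days after treatment. The sample labels list 6 tumors, 2 each given vehicle, a low dose or a high dose of a bispecific antibody that binds PD-1 and carries GITR ligand. The high dose is 30 mg/kg, and for the low dose one label gives 10 mg/kg and another gives 30 mg/kg, while the study's own text names a different dose and an isotype control for its single-cell experiment. The 4 libraries, M1, M2, M5 and M6, are not paired with these tumors in the sources used here, so no value was compared between treatments, no test was run, and each library is given on its own or as a range.

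Each cell carries 1 of 12 labels. The authors gave them by the best correlation with ImmGen profiles of sorted immune cells. The genes used are not named, so the cathepsin genes may have entered those correlations, and differences between labels are descriptions. Stroma was the largest label with 15687 cells, followed by ILC (innate lymphoid cells) with 4628, NK cells with 4398, T cell EFF (effector) with 3633, Myeloid with 2680, T cell MEM (memory) with 1179, NKT with 781, DC (dendritic cells) with 556, T cells with 203, B cells with 124, T cell Naive with 55 and Stem cells with 37. The sums of 7 macrophage genes and of 3 B cell genes were highest in the labels named for them, with 10267 CPM for the macrophage genes in Myeloid against 63.1 CPM in Stroma, and of 3751 CPM for the B cell genes in B cells. Other lists were less clear: of 4 DC genes *Xcr1*, *Flt3* and *Clec9a* were highest in DC, but *Ccr7* was at 456 CPM there and 581 CPM in T cells, and NKT held 57.0 CPM of 3 NK genes beside 196 CPM of *Foxp3*, a gene of regulatory T cells. ILC held 647 CPM of the same NK genes, against 861 CPM in NK cells. Of 5 T cell genes, ILC held 376 CPM and NK cells 59.3 CPM. CPM are UMIs of a gene per 1000000 UMIs of the cells summed. Stroma went against the CD45 enrichment, since *Ptprc*, the gene of CD45, was at 7.47 CPM there against 463 CPM in DC, 584 CPM in Myeloid and 1240 CPM in NK cells. Libraries held 158337797 to 315577167 UMIs, and the median cell 40692 UMIs in Stroma, 8027 in Myeloid and 5397 in NK cells. Barcodes shared by more than 1 library numbered 111, in 222 cells.

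Cathepsins are proteases that mostly work in the acidic lysosome, where they are activated by removal of a propeptide and break down proteins taken up from outside or delivered by autophagy. Most are cysteine proteases of the papain family, while cathepsin D is an aspartic protease and cathepsin A a serine carboxypeptidase that also protects lysosomal neuraminidase and beta-galactosidase. Beyond bulk protein breakdown, cathepsin S cuts the invariant chain of MHC class II molecules, cathepsin C activates the serine proteases of cytotoxic, mast cell and neutrophil granules, cathepsin K degrades bone collagen in osteoclasts, and cathepsin W belongs to cytotoxic lymphocytes. Cystatins, stefins and some serpins hold these enzymes in check.

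The genes lie on 7 chromosomes of GRCm38, and *Ctsk* and *Ctss* are neighbors on chromosome 3, both on the plus strand (chr3:95499256-95509362 and chr3:95526786-95556403). A stretch of 17423 bases separates them, with 0 annotated genes between. The 250 bases before each RefSeq start (GRCm38.p6) are shown because the pair sat side by side but had very different levels and spreads over cells, described further on. Capitals mark the core GAGGAA, bound by the myeloid factor PU.1, on either strand in both. In *Ctss* they also mark the letters TATAAA, on the minus strand, and those of an interferon-stimulated response element (ISRE, GAAA and GAAA with 2 bases between).
Ctsk, chr3:95498960-95499209, plus strand: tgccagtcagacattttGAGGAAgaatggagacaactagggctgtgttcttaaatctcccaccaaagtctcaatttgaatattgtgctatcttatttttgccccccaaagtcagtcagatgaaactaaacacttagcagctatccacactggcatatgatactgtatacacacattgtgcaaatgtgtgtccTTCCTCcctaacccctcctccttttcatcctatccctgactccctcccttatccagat
Ctss, chr3:95526536-95526785, plus strand: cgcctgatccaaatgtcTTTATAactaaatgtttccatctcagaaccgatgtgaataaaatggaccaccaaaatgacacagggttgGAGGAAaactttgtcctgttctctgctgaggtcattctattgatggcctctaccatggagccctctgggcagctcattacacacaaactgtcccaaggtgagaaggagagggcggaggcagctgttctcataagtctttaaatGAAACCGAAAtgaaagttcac
GAGGAA began at -233 and, as TTCCTC, at -58 in *Ctsk*, and at -164 in *Ctss*, counted from the start site. In *Ctss*, TATAAA was found on the minus strand at -233 and the ISRE, as GAAACCGAAA, at -21. Of 32851 promoters of this length, 23.3% held GAGGAA, 12.4% TATAAA and 2.98% the ISRE on either strand. The E-box CACGTG (6.02% of promoters), the M-box TCATGTG (3.25%) and the AP-1 site TGACTCA (4.46%) are not among the letters of either window. A match describes letters only.

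Relative to the UMIs of each label, cathepsin transcripts were highest in Myeloid cells. In UMIs counted, Stroma held more, 2078464 against 367628 in Myeloid, with more cells and deeper ones. Summed over the 10 genes, Myeloid held 9675 CPM, followed by Stroma with 3002 CPM, DC with 2909 CPM, ILC with 2608 CPM, T cell MEM with 2276 CPM, T cell EFF with 1946 CPM, NK cells with 1803 CPM, B cells with 1502 CPM, NKT with 1228 CPM and T cells with 965 CPM. In each library, 6 genes were highest in Myeloid, namely *Ctsa*, *Ctsb*, *Ctsc*, *Ctsk*, *Ctss* and *Ctsz*, and *Ctsw* was highest in ILC. By the same rule, 5.45% of the 11661 genes tested were highest in Myeloid and 0.137% in ILC. This made 7 of 10 genes with the same leading label in all libraries, against 30.5% of the genes tested. The lead of ILC over NK cells in *Ctsw* was small, 1.08-fold when pooled, and the ranges of these labels over the libraries overlapped. The leading label of the other 3 genes varied, with *Ctsd* highest in Myeloid except in M1, where NK cells led, *Ctsh* highest in DC except in M1, where B cells led, and *Ctsl* split between Stroma (M1, M2) and Myeloid (M5, M6). These UMIs come from the 3' end, so a transcript was counted once whatever its length and the CPM of different genes are shares of molecules, not levels per length.

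**Figure D1:**
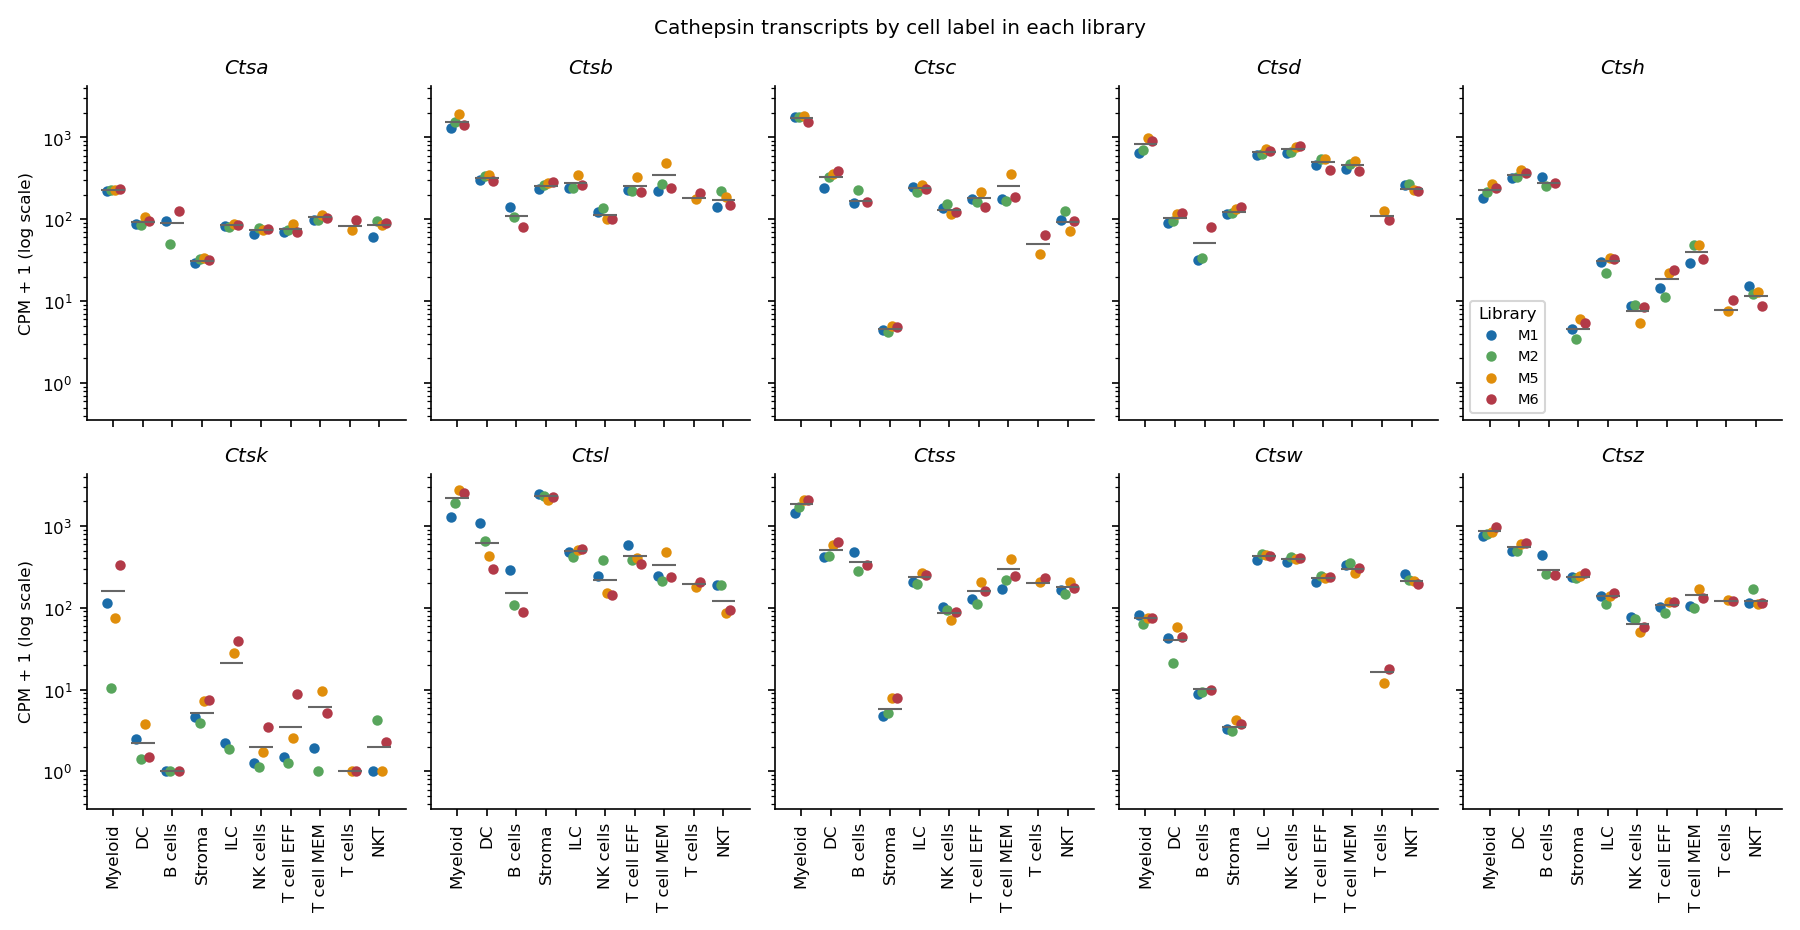
Each panel plots one cathepsin gene, with its level in CPM on a log axis for the 10 labels of at least 100 cells and a point for each library. The 4 Myeloid points lie above those of every other label for *Ctsb*, *Ctsc* and *Ctss*, while the Myeloid points of *Ctsk* are spread from 9.47 to 329 CPM.

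The make-up of the cathepsin pool also differed by label. Stroma was nearly a single-gene pool, with *Ctsl* taking 77.9% of its cathepsin UMIs (74.4% to 79.6% in the libraries), then *Ctsb* with 8.5% and *Ctsz* with 8.0%. Myeloid was shared among several genes, with *Ctsl* at 22.7% (16.5% to 25.1% in the libraries), *Ctss* at 19.2% (18.4% to 20.2%), *Ctsc* at 17.7% (15.0% to 22.8%) and *Ctsb* at 15.9% (13.7% to 17.4%). *Ctsl* led the pooled value, but its range overlapped those of *Ctss*, *Ctsc* and *Ctsb*. In M1 *Ctsc* led, and *Ctsl*, at 1279 CPM, was also below *Ctss* at 1432 CPM and *Ctsb* at 1290 CPM. In NK cells the aspartic protease *Ctsd* took 40.4% and *Ctsw* 21.7%. B cells had the smallest pool among labels over 100 cells except NKT and T cells, and in it *Ctss* took 24.1%, *Ctsz* 19.4% and *Ctsh* 18.5%.

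**Figure D2:**
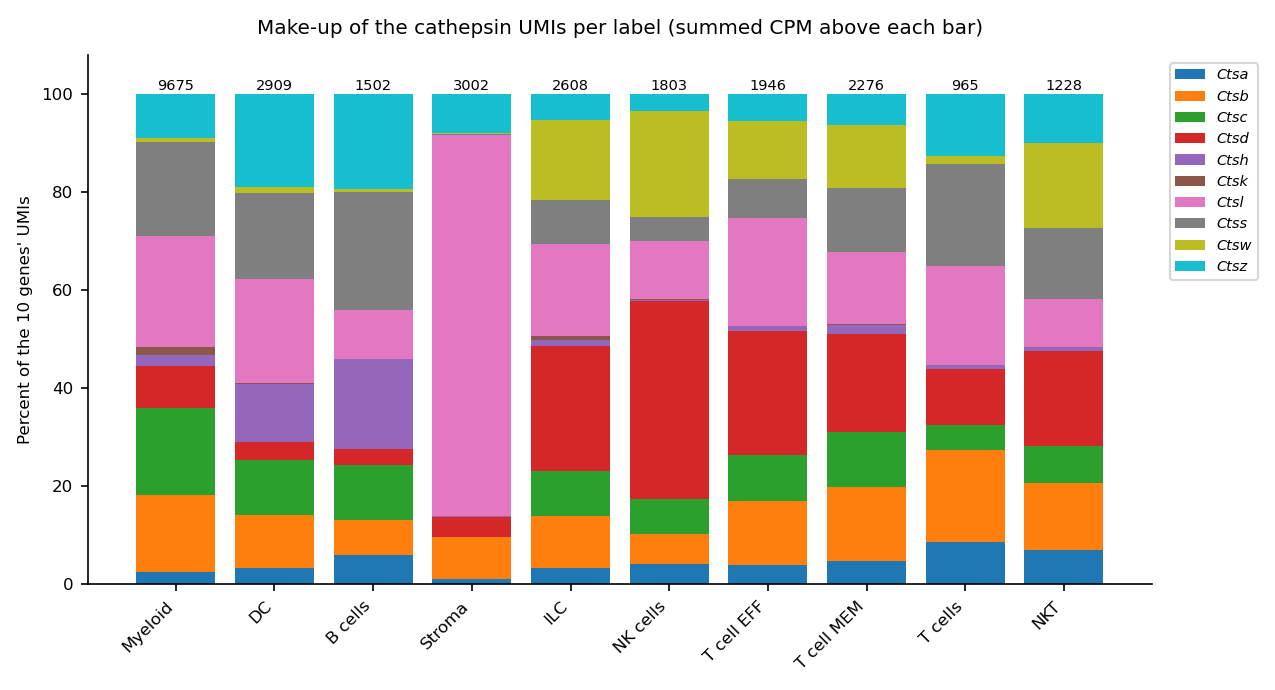
Stacked bars give the percent of each label's cathepsin UMIs that fell to each gene, libraries pooled, with the summed CPM above the bar. *Ctsl* fills 77.9% of the Stroma bar, and *Ctsd* with *Ctsw* together fill most of the NK cell bar.

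Of the enzymes with broad endolysosomal roles, *Ctsb*, *Ctsc*, *Ctss*, *Ctsz* and *Ctsa* were Myeloid genes in every library. *Ctss* was at 1432, 1703, 2062 and 2087 CPM in Myeloid of M1, M2, M5 and M6, and at 3.72, 4.16, 6.91 and 6.80 CPM in Stroma. *Ctsc*, the granule protease activator, was at 1771, 1799, 1825 and 1544 CPM in Myeloid and 3.46, 3.23, 4.01 and 3.90 CPM in Stroma. The labels did not overlap, with pooled Myeloid levels 322-fold (*Ctss*) and 378-fold (*Ctsc*) above Stroma on the CPM + 1 scale. *Ctsb*, an endopeptidase that also trims dipeptides, was at 1290, 1550, 1931 and 1419 CPM in Myeloid and at 232 to 283 CPM in Stroma, 6.01-fold apart. *Ctsz*, a carboxypeptidase, was at 760 to 969 CPM in Myeloid and 230 to 261 CPM in Stroma, 3.58-fold apart. *Ctsa* was low throughout, at 223 to 235 CPM in Myeloid and 28.2 to 32.9 CPM in Stroma, and varied least among the libraries in Myeloid.

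In the fixed comparison of Myeloid with Stroma, 9 of 10 genes were over 2-fold higher in Myeloid in each library, all but *Ctsl*, against 17.7% of the 10274 genes tested. None was higher in Stroma by that rule, against 12.4% of genes. Their median log2 ratio was 3.65, beside -0.05 over all genes tested. Among the 9, *Ctsw* at 73.2 CPM in Myeloid and 2.47 CPM in Stroma is a lymphocyte gene, and *Ctsk* rested on few cells. In Myeloid against DC, *Ctsa*, *Ctsb*, *Ctsc*, *Ctsd*, *Ctsk* and *Ctss* were over 2-fold higher in each library, 6 of 10 against 4.85% of the 9816 genes tested, and none was higher in DC, against 3.4%. *Ctsa* no longer passed with the mean over cells of each cell's CPM, nor did *Ctsk* with a pseudocount of 10 CPM, which also ended its call against Stroma. *Ctsd* differed most among the well-detected genes, at 824 CPM in Myeloid and 103 CPM in DC (7.90-fold), whereas *Ctsz* differed by 1.57-fold.

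Cells with a UMI were counted after each cell was thinned to 2000 UMIs, so that deep Stroma cells and shallow lymphocytes could be compared. In Myeloid, 75.4% of cells carried *Ctss* (exact 95% interval 73.7% to 77.1%), 71.8% *Ctsb* and 70.7% *Ctsc*. In Stroma, 1.11% carried *Ctss* (0.95% to 1.29%) and 0.953% *Ctsc*, below the 3.15% that carried the macrophage gene *Lyz2*, which has a higher level in Myeloid. As a percent of its Myeloid CPM, the Stroma level was 0.257% for *Ctss*, 0.206% for *Ctsc* and 0.200% for *Lyz2*. *Ctsl* was found in 89.3% of Stroma cells (88.8% to 89.8%) and 62.7% of Myeloid cells. The median Myeloid cell carried 5 of the 10 genes at this depth, the median DC 3 and the median Stroma, NK, ILC or B cell 2. Without thinning, at a median of 40692 UMIs, *Ctss* was found in 16.0% of Stroma cells and *Lyz2* in 36.4%. The intervals cover counting error only.

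**Figure D3:**
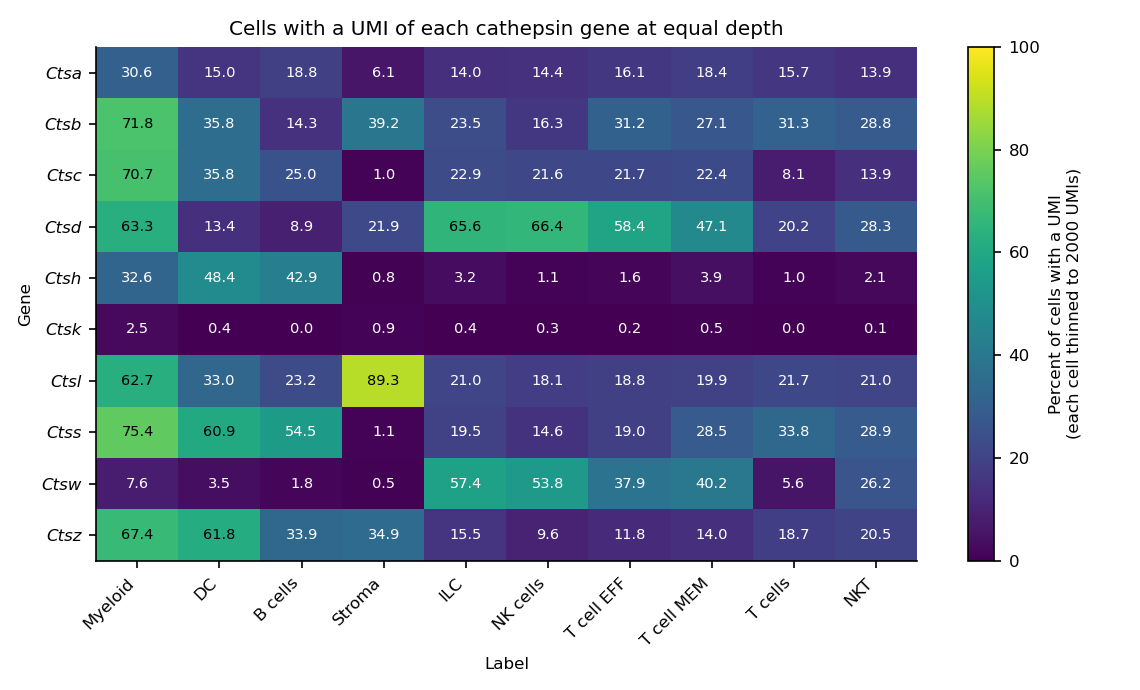
The heat map gives the percent of cells of each label (columns) with at least 1 UMI of each cathepsin gene (rows) after thinning to 2000 UMIs. The Stroma column holds 89.3% for *Ctsl* beside 1.11% for *Ctss*, and the Myeloid column exceeds 60% for 6 genes.

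*Ctsl*, a strong endopeptidase that is also secreted, was the 1 gene not over 2-fold higher in Myeloid than in Stroma in each library. In Stroma it was at 2451, 2339, 2070 and 2280 CPM in M1, M2, M5 and M6, and in Myeloid at 1279, 1925, 2776 and 2540 CPM. Stroma was the higher of the 2 in M1 and M2 and Myeloid in M5 and M6, with log2 ratios of Myeloid over Stroma of -0.94, -0.28, 0.42 and 0.16. The 2 ranges overlapped, and the order of these labels was not the same in every library. In DC, *Ctsl* was at 1078, 651, 427 and 297 CPM, and in each library 39.8% to 54.7% of these UMIs were in 5 cells. The collagen gene *Col1a2* was highest in Stroma, at 681 CPM pooled. In DC of M1, M2, M5 and M6 it was at 135, 180, 41.3 and 12.3 CPM, higher in M1 and M2, as *Ctsl* was, but highest in M2. In DC with no *Col1a2* UMI, *Ctsl* was at 434, 357, 334 and 298 CPM, a narrower range. In Myeloid cells with no *Col1a2* UMI, *Ctsl* was at 1142, 1944, 2907 and 2609 CPM, a spread as large as in all Myeloid cells. The part of RNA from Stroma cells in these DC and Myeloid values was not tested.

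Within Stroma, *Ctsl* hardly differed between cells with and without the fibroblast collagen *Col3a1*, whereas 2 low genes differed a lot. At 2000 UMIs per cell, 1792 Stroma cells had a *Col3a1* UMI (1258 of them exactly 1) and 13850 had none. *Ctsl* was at 2507 CPM in the former and 2321 CPM in the latter, and *Ctsz* at 236 and 239 CPM. *Ctsk*, also a product of fibroblasts, was at 34.3 CPM (20.8 to 84.9 in the libraries) against 1.20 CPM (0.78 to 2.26). *Ctsh*, an aminopeptidase, was at 27.7 CPM (16.7 to 59.1) against 1.14 CPM (0.88 to 1.85). These gaps were 16.1-fold and 13.4-fold on the CPM + 1 scale, while *C1qa* was at 3.37 and 2.94 CPM. Few cells carried most of the *Ctsk* and *Ctsh* UMIs: 89 of the 1792 had at least 10 *Ctsk* UMIs, a limit chosen after the values were seen, and held 1787 of the 2149 *Ctsk* UMIs and 1235 of the 1734 *Ctsh* UMIs. In the other 1703 cells, *Ctsk* was at 6.13 CPM (3.64 to 14.0) and *Ctsh* at 8.44 CPM (3.59 to 14.8), against 1.08 and 1.13 CPM in the 13845 cells with no *Col3a1* UMI and under 10 *Ctsk* UMIs. Whether tumor cells stand under the Stroma label was not tested.

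*Ctsd* and *Ctsw* were the highest cathepsin genes of NK cells, and pooled over the libraries *Ctsd* led in ILC, T cell EFF and T cell MEM as well. In T cell EFF of M1, *Ctsl* was higher, at 586 against 463 CPM. *Ctsd* was at 650, 655, 770 and 787 CPM in NK cells of M1, M2, M5 and M6, at 616, 619, 715 and 685 CPM in ILC, and at 645, 705, 988 and 893 CPM in Myeloid. The 3 ranges overlapped, and T cell EFF (405 to 548 CPM) and T cell MEM (393 to 521 CPM) lay below them. DC were low in this gene at 89.4 to 119 CPM, and B cells lower at 49.7 CPM pooled. *Ctsw*, whose product is held in the endoplasmic reticulum of cytotoxic cells, was at 378, 447, 441 and 428 CPM in ILC and at 360, 411, 388 and 403 CPM in NK cells. T cell MEM held 264 to 350 CPM, T cell EFF 205 to 243 CPM and NKT 195 to 255 CPM, and the latter 2 ranges overlapped. Thinned to 2000 UMIs, 66.4% of NK cells carried *Ctsd* and 53.8% carried *Ctsw*, which 0.531% of Stroma cells and 1.79% of B cells carried.

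None of the 9 genes tested was over 2-fold apart in each library between NK cells and T cell EFF in either direction, where 2.41% of the 9559 genes tested were higher in NK cells and 3.14% in T cell EFF. That count was near the shares over all genes. The median log2 ratio of the 9 was -0.79, beside -0.07 over all genes tested. By its weakest library *Ctsw* came closest, with log2 ratios of NK cells over T cell EFF from 0.75 to 0.81 in the 4 libraries. Pooled, *Ctsh* (2.45-fold) and *Ctsb* (2.29-fold) were further apart than *Ctsw* (1.72-fold), and both were higher in T cell EFF. *Lyz2* was also higher in T cell EFF, at 373 against 134 CPM, and its part in these values was not tested. *Ctsl* had log2 ratios of -1.25, -0.0028, -1.42 and -1.24 in M1, M2, M5 and M6. Granule proteases were over 2-fold higher in NK cells for 7 of 10 tested, among them *Gzma* at 15149 against 680 CPM and *Gzmc* at 4807 against 417 CPM. The 7 also included 2 that are not granzymes, *Cma1* at 27.1 against 4.32 CPM and *Ctsg* at 15.7 against 0.304 CPM. *Gzmb*, at 4955 against 2437 CPM, was not over 2-fold apart in each library. Between ILC and NK cells, *Ctsh* (29.8 against 6.62 CPM) and *Ctss* (236 against 86.1 CPM) were over 2-fold higher in ILC in each library, 2 of 10 genes where 2.04% of the 9384 genes tested were higher in ILC and 0.0426% in NK cells. Neither passed with the mean over cells of each cell's CPM or with a pseudocount of 10 CPM, and *Ctss* did not pass without cells over 10% mitochondrial UMIs. The macrophage gene *Lyz2* moved with them, at 404 to 722 CPM in ILC against 85.6 to 205 CPM in NK cells, and so did 5 of 6 class II genes tested.

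Transcripts of the other cells were then set beside the lymphocyte values. *Lyz2* in NK cells came to 2.01% of its Myeloid level, in T cell EFF to 5.62% and in ILC to 8.35%. In ILC, *Ctss* came to 12.7% of its Myeloid level and *Ctsh* to 13.0%, while *Ctsd* in NK cells came to 88.3% and *Ctsw* in NK cells to 534%. Lymphocytes with neither a *Lyz2* nor a *Col1a2* UMI were taken after these values had been seen, 2374 of 4628 ILC, 2823 of 4398 NK cells, 1851 of 3633 T cell EFF and 619 of 1179 T cell MEM. In those cells *Ctsd* was at 717 CPM in ILC and 754 CPM in NK cells, and *Ctsw* at 543 and 429 CPM, each above the 667, 728, 424 and 391 CPM of all cells of the label. In T cell MEM, *Ctsd* was at 418 CPM in place of 458. *Ctsl* was at 70.4 CPM in ILC in place of 492, at 70.0 in NK cells in place of 216, at 60.4 in T cell EFF in place of 427 and at 73.8 in T cell MEM in place of 334. *Ctss* was at 72.1 CPM in ILC and 69.1 CPM in NK cells, so the gap in *Ctss* between these labels was not seen in those cells, while *Ctsh* was still the higher in ILC, at 5.96 against 2.41 CPM. *Ctsa* was at 70.5 CPM in ILC, 73.6 in NK cells and 77.2 in T cell EFF, close to 83.8, 72.8 and 75.8 in all cells. Cells without these UMIs were also shallower, with a median of 4939 UMIs in NK cells, and the part of free RNA or doublets in the other values was not tested.

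**Figure D4:**
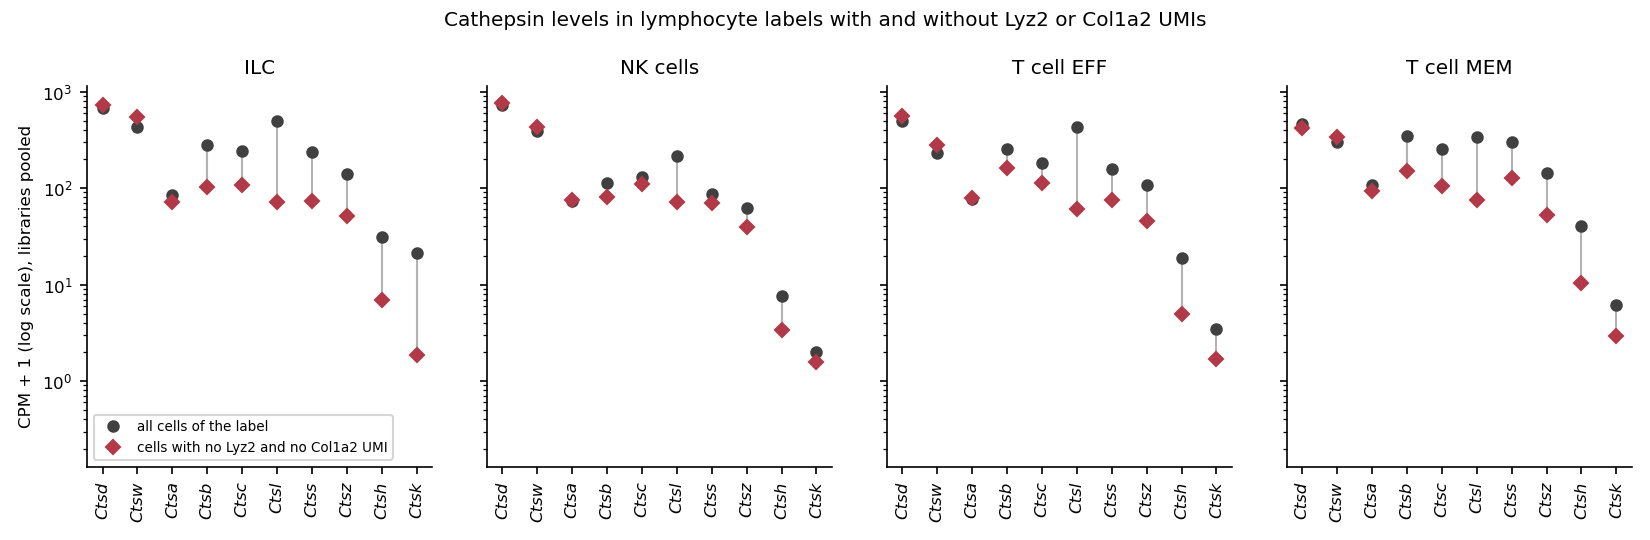
For each lymphocyte label, points on a log axis give the level of each cathepsin gene in CPM in all cells and in the cells with no *Lyz2* and no *Col1a2* UMI. *Ctsd* and *Ctsw* stay in place or move up in ILC and NK cells, while *Ctsl* moves from 492 to 70.4 CPM in ILC.

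Among the labels, *Ctsh* was highest in DC, B cells and Myeloid, whose cells present antigen on class II. It was at 318, 325, 405 and 365 CPM in DC, at 255 to 327 CPM in the 3 libraries with at least 20 B cells, and at 182, 215, 273 and 238 CPM in Myeloid. B cells overlapped with DC and Myeloid in range, DC lay above Myeloid within each library (log2 ratio of Myeloid over DC -0.80 to -0.57), and every other label as a whole was under 50 CPM. Within Stroma, however, the 94 cells with at least 10 *Ctsk* UMIs had *Ctsh* at 339 CPM (274 to 413 in the libraries), a range that overlapped DC, beside *Lyz2* at 10.4 CPM. The genes with the most similar pattern over the 10 labels of at least 100 cells, of 4892 considered, were *Rassf4*, the class II chaperone *H2-DMa* and the class II chain *H2-Eb1*, each with r = 0.99. In the list for class II loading, 6 of 8 genes tested were over 2-fold higher in DC than in Myeloid, where 3.4% of all genes tested were, whereas *Ctss*, which processes the invariant chain encoded by *Cd74*, was 3.64-fold higher in Myeloid. *Cd74* itself was at 10765 CPM in DC and 4323 CPM in Myeloid. *Ifi30* is not found in the table under that symbol.

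The Myeloid level of *Ctsk* came from a handful of cells. It was at 113, 9.47, 73.2 and 329 CPM in M1, M2, M5 and M6, a range of 31.5-fold on the CPM + 1 scale. Of its 5983 UMIs in Myeloid, 62.2% were in 5 cells, and 12 cells with at least 100 *Ctsk* UMIs held 5382. All 12 also had UMIs of *Acp5* (tartrate-resistant acid phosphatase), *Mmp9* (gelatinase B) and *Atp6v0d2* (a proton pump subunit), osteoclast genes, 9 had *Ocstamp*, which takes part in osteoclast fusion, and 4 had the receptor *Oscar*. The highest cell, in M6, had 988 *Ctsk* UMIs with 491 of *Acp5* and 158 of *Mmp9*, and the next, in M1, had 782 with 485 and 206. M2 had no cell above 9 *Ctsk* UMIs.

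At a limit of 10 UMIs, chosen after the values were seen, 26 Myeloid cells stood out, 23 of them in M6, 2 in M1, 1 in M5 and 0 in M2. Near the limit, at 5 to 19 UMIs, lay 26 cells, partly the same ones. Against the 2654 other Myeloid cells, the 26 had *Ctsk* at 5551 and 9.06 CPM, *Acp5* at 2818 and 21.9 CPM, *Mmp9* at 1806 and 31.6 CPM, and *Atp6v0d2* at 427 and 8.87 CPM. Other cathepsins were also uneven, with *Ctsl* at 4322 and 2137 CPM, *Ctsa* at 412 and 224 CPM, *Ctss* at 2560 and 1841 CPM, and *Ctsc* the other way, at 435 and 1747 CPM. *C1qa* was at 139 and 1058 CPM. The 26 were deep cells, with a median of 39092 against 7919 UMIs, and 1 of them was over the doublet score. Without the library M6, *Ctsk* was 14.5-fold higher in Myeloid than in Stroma in place of 30.5-fold, and 28.0-fold higher than in DC in place of 71.2-fold. Without the 26 cells *Ctsk* in Myeloid was at 4.78, 9.47, 11.6 and 9.84 CPM, the log2 ratio to Stroma went from 4.93 to 0.95, and *Ctsk* was no longer over 2-fold higher in Myeloid than in Stroma in each library (8 of 10 genes in place of 9). That removal took cells from Myeloid alone, by the value compared. Stroma had 94 of 15687 cells with at least 10 *Ctsk* UMIs and 0 with at least 100. Without the cells of at least 10 *Ctsk* UMIs in every label, also chosen after the values were seen, *Ctsk* in Stroma was at 1.52 CPM, the log2 ratio of Myeloid over Stroma was 2.00, and *Ctsk* was over 2-fold higher in Myeloid in each library, 9 of 10 genes as in all cells. In ILC, 2 cells with 714 and 463 *Ctsk* UMIs likewise had 464 and 257 of *Acp5* and 156 and 328 of *Mmp9*. No protein was measured, and whether these are osteoclast-like cells was not tested.

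**Figure D5:**
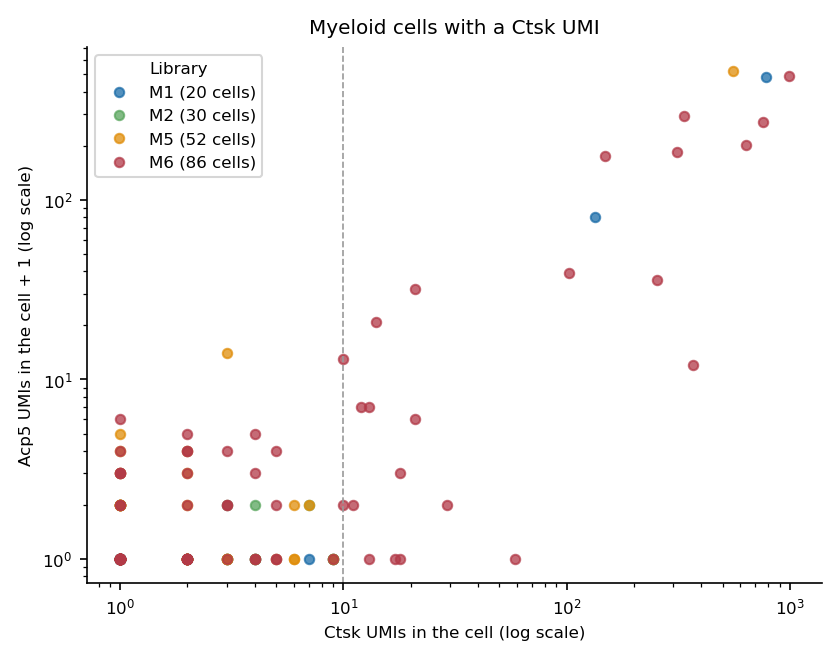
Each point is a Myeloid cell with a *Ctsk* UMI, with its *Ctsk* UMIs on the x axis and its *Acp5* UMIs plus 1 on the y axis, both log scales, colored by library; the dashed line marks 10 *Ctsk* UMIs. *Acp5* was found in 41 of 162 cells with 1 to 9 *Ctsk* UMIs, 10 of 14 with 10 to 99 and 12 of 12 with 100 or more.

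Within Myeloid, the complement gene set C1q marked a range of cells with more *Ctsb* and *Ctsc*. After thinning, 684 cells had at least 2 UMIs of *C1qa*, *C1qb* and *C1qc* and 1863 had 0 or 1 (302 cells lay next to the limit). Before thinning, the former were also deeper, with a median of 15205.5 against 7976 UMIs. *Ctsb* was at 2281 CPM (1865 to 3139 in the libraries) against 1108 CPM (757 to 1381), and *Ctsc* at 2381 CPM (2012 to 2660) against 1326 CPM (1144 to 1447). Neither pair of ranges overlapped. *Ctss* was at 2278 and 1622 CPM, again without overlap, while *Ctsh* was at 230 CPM in both and *Ctsl* at 2288 and 2150 CPM with overlapping ranges. The cells with 0 or 1 C1q UMIs also held the mast cell transcripts, with *Cma1* at 1356 against 60.1 CPM and *Mcpt4* at 904 against 19.6 CPM, and *Ctsk* at 235 against 25.5 CPM. Without cells of at least 2 mast cell genes or at least 10 *Ctsk* UMIs, left out after the values were seen, *Ctsb* was at 2302 CPM (1917 to 3123) in the 667 cells with at least 2 C1q UMIs against 1166 CPM (829 to 1489) in the 1559 others. *Ctsc* was at 2422 CPM (2083 to 2647) against 1440 CPM (1276 to 1530), again without overlap, while *Ctss*, at 2295 CPM (1936 to 2647) against 1701 CPM (1129 to 1981), now overlapped. The 305 Myeloid cells with UMIs of at least 2 of the mast cell genes *Cpa3*, *Cma1*, *Mcpt4* and *Tpsb2* were low in most cathepsins. They had *Ctss* at 333 CPM against 1947 CPM in the other 2375 cells, *Ctsb* at 324 against 1607 CPM and *Ctsc* at 501 against 1781 CPM, but *Ctsd* at 533 against 841 CPM. *Lyz2* was at 1051 and 6952 CPM in these cells, and *Ctsg*, the granule protease cathepsin G, at 448 and 0.45 CPM.

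Among cells of the T cell EFF, T cell MEM, T cells and NKT labels, 866 had a *Foxp3* UMI, the transcript of the regulatory T cell factor, and 4930 had none. Those with *Foxp3* numbered 55, 67, 384 and 360 in M1, M2, M5 and M6, and they made up 280 of 3633 T cell EFF, 194 of 1179 T cell MEM, 110 of 203 T cells and 282 of 781 NKT. *Ctsw* was lower in those with *Foxp3*, at 129 CPM (96.6 to 155) against 255 CPM (219 to 280), and *Ctsz* higher, at 213 CPM (141 to 224) against 92.7 CPM (83.6 to 100.8). *Ctss* was at 380 CPM (164 to 483) against 139 CPM (117 to 158) and *Ctsh* at 44.5 against 15.3 CPM. *Lyz2* moved the same way, at 821 against 279 CPM, and its part in the *Ctss*, *Ctsz* and *Ctsh* values was not tested. Since the labels differed in both genes, the split was repeated within labels after these values had been seen. *Ctsw* was at 140 CPM (94.9 to 174) with *Foxp3* against 240 CPM (206 to 260) without in T cell EFF, at 82.1 CPM (75.8 to 111) against 311 CPM (269 to 360) in NKT, and at 164 against 341 CPM in T cell MEM, where 2 libraries had at least 20 cells with *Foxp3*. In T cells it was at 7.38 and 26.4 CPM, on 5 and 13 UMIs. By label, *Cd8a* and *Cd4* were at 597 and 18.0 CPM in T cell EFF, 424 and 68.6 CPM in T cell MEM, and 114 and 145 CPM in NKT. They were at 1.71 and 192 CPM in T cells, where *Ctsw* was at 15.4 CPM in all cells. The split did not separate cells with *Cd4* from cells with *Cd8a*, and their part in the *Ctsw* values was not tested. *Ctsz* was at 222 against 90.5 CPM in T cell EFF and at 173 against 81.6 CPM in NKT, and *Lyz2* at 1055 against 274 CPM in T cell EFF, 851 against 367 CPM in T cell MEM and 148 against 137 CPM in NKT. The T cell EFF with *Foxp3* were also deeper, with a median of 16232 against 9854 UMIs.

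Ratios of the highest to the lowest library were taken on the CPM + 1 scale. In Stroma, 0 of the 5 genes tested (*Ctsa*, *Ctsb*, *Ctsd*, *Ctsl* and *Ctsz*) were over 1.5 times apart between the highest and lowest library, against 4.17% of the 8915 genes tested. Of the 5 low genes there that were not tested, *Ctsk* (1.95 times), *Ctsh* (1.76 times) and *Ctss* (1.67 times) were further apart than that. In Myeloid, 3 of 10 were, against 21.5% of the 9372 genes tested, namely *Ctsk*, *Ctsl* (2.17 times) and *Ctsd* (1.53 times), with *Ctsb* and *Ctsh* (1.49 times) just under the limit. Marker genes in Myeloid differed too. Over M1, M2, M5 and M6, *C1qa* was at 1545, 1248, 959 and 631 CPM. The sum of the neutrophil genes *S100a8*, *S100a9* and *Csf3r* was at 787, 1271, 1200 and 1922 CPM. Their part in the cathepsin spread was not tested. In NK cells 3 of 9 were over 1.5 times apart, against 11.8% of 8988 genes, namely *Ctsl* (2.69 times), *Ctsh* (1.69 times) and *Ctsz* (1.52 times). *Ctsl* in NK cells was at 246, 386, 150 and 143 CPM beside *Col1a2* at 62.5, 69.0, 27.7 and 28.0 CPM, high in the same libraries. In NK cells with no *Col1a2* UMI it was at 123, 88.1, 73.3 and 57.9 CPM, and the part of RNA from Stroma cells in these values was not tested.

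Genes with the most similar levels over the 10 labels give the company of each cathepsin, as a description over labels that share libraries. Most of these neighbors depend on the measure, since of the 30 genes named, 8 were kept with Spearman's rho and 13 with points of label and library. *Ctsw* ran with *Gzmb*, *Ctla2a* and *Nkg7* (r = 0.99 each), genes of cytotoxic cells, and *Ctla2a* encodes a protein like the propeptide of cysteine cathepsins. *Ctsl* ran with *Cstb* (r = 0.99), which encodes the cathepsin inhibitor stefin B, and with *Ccl2* and *Sgms2* (0.98 each). *Ctss* ran with *Cpeb4*, *Cybb* (a subunit of the phagocyte oxidase) and *Ms4a6c*, and *Ctsc* with *Ms4a4c*, *Il10ra* and *Cyba*. *Ctsa* ran with *Cndp2*, *Slfn2* and *Cpeb4*, *Ctsb* with *Il18bp*, *0610012G03Rik* and *C3*, *Ctsd* with *Lamtor4*, *Lasp1* and *Hilpda*, *Ctsz* with *Zfp36*, *Scpep1* and *5031439G07Rik*, and *Ctsk* with *Ccl7*, *Klra2* and *Mmp13*, on levels that its few high cells set in Myeloid. Among the members themselves, the 5 pairs with the highest r were *Ctsa* and *Ctss* (0.95), *Ctsc* and *Ctss* (0.94), *Ctsa* and *Ctsc* (0.94), *Ctsb* and *Ctsk* (0.89, with the few high *Ctsk* cells), and *Ctsd* and *Ctsw* (0.80).

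Other lysosomal genes were also higher in Myeloid than in Stroma at the median, by smaller ratios. Of 16 other lysosomal hydrolases and partners, 11 were over 2-fold higher in Myeloid than in Stroma in each library and 0 were higher in Stroma, where 17.7% of all genes tested were higher in Myeloid and 12.4% in Stroma, with legumain (*Lgmn*, which processes cathepsins) at 687 and 49.9 CPM and the prosaposin gene *Psap* at 2230 and 160 CPM. Of 14 sorting, membrane and regulatory genes tested, 7 were higher in Myeloid and none in Stroma, among them the mannose 6-phosphate receptor gene *M6pr*, which sorts enzymes to the lysosome, at 159 and 40.8 CPM, *Cd68* at 287 and 6.18 CPM and the cholesterol carrier gene *Npc2* at 1423 and 394 CPM. Those that did not pass included the lysosomal membrane protein gene *Lamp1* at 603 and 440 CPM, *Mitf*, a regulator of lysosomal genes, at 29.7 and 24.3 CPM, and *Cd63*, at 447 CPM in Myeloid and 1015 CPM in Stroma. The median log2 ratios were 2.13 and 1.19, beside 3.65 for the cathepsins. Against DC, 3 of 16 hydrolases were over 2-fold higher in Myeloid, where 4.85% of all genes tested were.

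Inhibitors had their own order of labels. *Cst3*, the secreted inhibitor cystatin C, was at 15832 to 20344 CPM in DC, pooled 18828 CPM against 2072 CPM in Myeloid and 858 CPM in Stroma. *Cstb* was at 757 CPM in Myeloid and 582 CPM in Stroma, the same labels that held most *Ctsl*. *Ctla2a* was at 1918 CPM in NK cells and 1466 CPM in ILC, and *Cst7*, cystatin F, which acts on cathepsin C, at 231 CPM in T cell EFF, 208 CPM in NK cells and 56.4 CPM in Myeloid. Of 11 inhibitor genes tested, 8 were over 2-fold higher in Myeloid than in Stroma in each library and 2 in Stroma, beside 17.7% and 12.4% of all genes tested. Among those higher in Myeloid, *Ctla2a*, *Ctla2b*, *Serpinb6b* and *Serpinb9* had their highest level in NK cells, and *Cst7* in T cell EFF. Of 13 further cathepsin genes, *Ctse*, *Ctsg* and *Ctso* reached 5 CPM in some label, and 7 had no UMI.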

How the data were processed

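Single-cell libraries were made by the authors with 10x 3' chemistry from CD45-enriched cells of CT26 tumors, and reads were processed with Cell Ranger 3.0.2 per the labels, on mm10 (GRCm38). The deposited values are unnormalized UMI counts of each gene in each cell, with a library name and a cell label, and no doublet removal or free-RNA correction is named. The computation used Python 3.11.15 (scipy 1.17.1, pandas 2.3.3, numpy 2.4.6, matplotlib 3.10.9). Within each library and label, UMIs of all cells were added up and scaled to CPM. A gene was counted as higher where log2((CPM + 1)/(CPM + 1)) was over 1 in the same direction in each library, among genes of at least 5 CPM in 1 of the labels. A label needed 20 cells in a library to compete for the highest level. Shares of cells used 2000 UMIs per cell drawn without replacement, with exact binomial intervals, and shallower cells were left out. The fold counts and the thinning were tested on simulated data. Doublet scores came from scrublet in scanpy 1.11.5 (expected rate 0.06), and because its automatic threshold called 0.0279% of M5, a score of 0.25 defined an alternative without those cells. Positions are from GENCODE M21, and promoters (7 of 10 genes had an entry) from RefSeq. The gene symbols, lists and pairs of labels were chosen with earlier results of these data known, and the named genes are the members, the 3 most similar genes of each and the lists. *Ctsd*, *Ctsl* and *Ctss* overlap another gene on the same strand in GENCODE M21, and whether this affected their counts was not tested.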

Additional observations from a re-analysis of the deposited data

How the results depend on the processing

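Labels were compared within each library, but nothing could be paired or compared by sample because no library is matched to one. No ratio that passed the 2-fold rule changed direction under the alternatives run. Among the others, *Ctsl* in Myeloid over Stroma went from a log2 ratio of -0.09 to 0.12 without M1, and *Ctsa* in NK cells over T cell EFF from -0.06 to 0.05 without M5 and to 0.0037 with the median of the libraries' ratios. The count of genes with the same leading label in each library (7 of 10) stayed within 1.5 times under all 11 alternatives, among them 6 without the 26 Myeloid cells of at least 10 *Ctsk* UMIs, which was chosen after seeing the data, and 7 without such cells in any label, chosen likewise. For Myeloid against DC, 3 genes (*Ctsb*, *Ctsd* and *Ctsk*) passed at 4-fold in place of 6 at 2-fold, and 5 with the mean over cells (without *Ctsa*) and with a pseudocount of 10 CPM (without *Ctsk*). For Myeloid against Stroma, in place of 9 genes, 7 passed at 4-fold (without *Ctsk* and *Ctsz*) and 8 with a pseudocount of 10 CPM (without *Ctsk*). For NK cells against T cell EFF, 2 genes (*Ctsb* and *Ctsw*) passed at 1.5-fold in place of 0, and leaving out single libraries gave 0 to 1, the 1 being *Ctsl* without M2. For ILC against NK cells, in place of 2 genes, 0 passed with the mean over cells of each cell's CPM, 0 with a pseudocount of 10 CPM, 0 at 4-fold, 1 (*Ctsh*) without cells over 10% mitochondrial UMIs and 5 at 1.5-fold. Genes over 1.5 times apart between libraries numbered 3 in place of 0 in Stroma with the mean over cells, 5 in place of 3 in Myeloid without cells over 10% mitochondrial UMIs, and 1 in place of 3 in NK cells with the mean over cells and also at 2-fold. Of the 30 most similar genes, 8 were kept with Spearman's rho and 13 with points of label and library. Beyond the 1.5-fold, 2-fold and 4-fold limits by construction, the cause of these shifts was not tested. Of the log2 ratios of single genes, 474 moved by less than the spread between libraries and 46 by more, and *Ctsl* in Myeloid over DC went from 3.54-fold to 5.18-fold without M1, which raised the genes that passed from 6 to 7. Of the shares of a label's cathepsin UMIs, 50 of 200 moved by more than the spread between libraries, 39 of them with the mean over cells. Of the shares of cells with a UMI, 305 moved beyond their interval and 595 did not, and with no thinning 95 of 100 moved. Depth limits the labels of few cells, and B cells reached 20 cells in 3 libraries.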
